A study of Mus musculus with 10 samples.

Results

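The genes described here are 35 components of protein folding and quality control in the endoplasmic reticulum (ER) and of the unfolded protein response, measured in mouse liver after phenobarbital. They were chosen by name, as every probe set whose annotated gene symbol is one of the 35, and were 35 of 18193 genes with a single-symbol probe set on the array. They were read by 87 of 45101 probe sets, of which 86 carried a single gene symbol. The livers came from 10 male B6C3F1/Crl mice, a hybrid of C57BL/6 and C3H/He, received at 29 to 32 days of age and given 5 days to acclimatise. The 5 treated animals drank water containing 0.05% (w/v) phenobarbital for 28 days, and the 5 controls were not given the drug. Each animal's whole liver RNA was hybridised to 1 Affymetrix array, so n = 5 animals per group throughout. No transgene or mutant allele is named for either group.

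The ER folds secreted and membrane proteins with the help of chaperones of the Hsp70 and Hsp90 families, sugar-binding lectins and enzymes that form disulphide bonds. Proteins that fail to fold are returned to the cytosol and destroyed, a route called ER-associated degradation. When unfolded proteins accumulate, the membrane sensors IRE1, ATF6 and PERK start the unfolded protein response: IRE1 splices the mRNA of Xbp1, ATF6 is cut to release a transcription factor, and PERK phosphorylates eIF2 alpha, which slows translation and favours that of Atf4. The hepatocyte carries a large rough ER for plasma protein secretion, and phenobarbital is known for the growth of its smooth ER together with cytochrome P450 enzymes. The question put to the data was whether the folding and stress genes differed between livers of treated and control animals.

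Many chaperone genes are known targets of the ER stress response element, a CCAAT box and a CCACG box 9 bases apart (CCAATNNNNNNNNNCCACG), which is bound by ATF6 with NF-Y. The element was searched on both strands of RefSeq promoter windows of GRCm38.p6, each running from 250 bases before to 50 bases after a gene start. A window was matched for 30 of the 35 genes, and Hyou1, Manf, Derl1, Sec61a1 and Atf6 have none. The element was in 9 of 30 of these genes (30.0%) and in 37 of 27025 genes with a window (0.137%). The 250 bases before the start of Hspa5, the ER Hsp70, are shown first because this gene is the classical target. They lie at chr2:34771840-34772089 on the plus strand, with the ends of the element and a TGACGTG core, the letters of the unfolded protein response element, in capitals. Next is the same stretch for Dnajc3, at chr14:118937682-118937931 on the plus strand, because it is the only gene of the 35 that was called lower.

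Hspa5 promoter: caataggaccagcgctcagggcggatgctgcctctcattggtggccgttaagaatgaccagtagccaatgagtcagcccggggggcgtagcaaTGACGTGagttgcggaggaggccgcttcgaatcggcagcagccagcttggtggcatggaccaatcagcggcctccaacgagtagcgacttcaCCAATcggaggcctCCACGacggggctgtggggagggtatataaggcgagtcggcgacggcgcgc
Dnajc3 promoter: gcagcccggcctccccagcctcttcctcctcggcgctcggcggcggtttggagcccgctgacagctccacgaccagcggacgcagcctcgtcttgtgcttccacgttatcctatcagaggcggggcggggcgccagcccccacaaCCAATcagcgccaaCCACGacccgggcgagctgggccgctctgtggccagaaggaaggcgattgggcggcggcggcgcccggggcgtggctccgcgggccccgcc

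The 10 elements found in the 9 genes are given in the direction in which they read CCAAT to CCACG, with those ends in capitals, to show how far the spacer between them varies. They lie at chr2:34772025-34772043 for Hspa5, chr10:86705638-86705656 and chr10:86705533-86705551 for Hsp90b1, chr8:84847075-84847093 for Calr and chr11:50325800-50325818 for Canx. The others are at chr15:88819520-88819538 for Creld2, chr14:118937827-118937845 for Dnajc3, chr12:17266491-17266509 for Pdia6, chr19:6046532-6046550 for Syvn1 and chr10:75893242-75893260 for Derl3. Those of Creld2, Derl3, Canx and the first of Hsp90b1 read on the minus strand of the genome and the others on the plus strand.

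Hspa5: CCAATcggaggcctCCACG
Hsp90b1, far: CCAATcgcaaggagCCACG
Hsp90b1, near: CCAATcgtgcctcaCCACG
Calr: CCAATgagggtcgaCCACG
Canx: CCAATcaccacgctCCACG
Creld2: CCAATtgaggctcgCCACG
Dnajc3: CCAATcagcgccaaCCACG
Pdia6: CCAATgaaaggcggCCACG
Syvn1: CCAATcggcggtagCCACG
Derl3: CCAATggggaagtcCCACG

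Every spacer differed from the others, and the element nearest to a gene start was that of Syvn1, 44 to 26 bases before it. CCACG alone, which every such element contains, was in 24 of the 30 genes (80.0%) and in 35.5% of all genes with a window. TGACGTG was in Hspa5 alone among the 30 (3.33%), against 2.22% of all genes with a window. The TGATGNAA core of the CEBP-ATF element, through which ATF4 is known to act, was in Asns, Chac1, Herpud1 and Trib3 (13.3%), against 4.51%. A match of letters is a description of the window and was not tested for binding.

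Each gene is given as the deposited log2 level of its brightest probe set, so a difference of 1 is a 2-fold change, and levels are compared between animals for the same gene only. A gene is called when the adjusted p of the limma comparison over all 18193 genes (Benjamini-Hochberg) is under 0.05. All 35 genes lay above the median gene, whose mean level was 6.42. Cyp2b10, the cytochrome P450 classically induced by phenobarbital, went from 6.47 to 13.52, a difference of 7.05 ± 0.24 (SE; limma adjusted p 1.78e-09). Hepatocyte markers, with 7 of 8 measured, gave the log2 of their summed level between 16.91 and 16.97 in controls and between 16.87 and 16.94 in treated animals, which fits the liver label. Array medians were between 5.42 and 5.50. The arrays stood apart on their poly-A spike-ins, bacterial RNAs added before labelling. Treated arrays had a mean of 5.76 to 6.58, control replicate 4 had 6.40, and the other 4 controls had 7.77 to 8.64. For Actb, the 3' end exceeded the 5' end, a measure of RNA length, by 1.19 to 1.33 in treated animals, 1.28 in control replicate 4 and 1.46 to 1.78 in the other 4 controls. For Gapdh the same measure was -0.28 to -0.21 in treated animals, -0.15 in control replicate 4 and -0.15 to -0.03 in the other 4 controls. Control replicate 4 thus lay with the treated arrays for Actb and with the controls for Gapdh. With this spike-in division as a block, the comparison rests on the 5 treated arrays and control replicate 4, and its value is given beside the called genes as the spike-in block.

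Of the 35 genes, 5 were called between treated and control livers, and the groups overlapped for Derl1, Pdia4 and Dnajc3. Derl1, Atf4, Pdia4 and P4hb rose, by 1.16- to 1.27-fold, and Dnajc3 fell to 0.71-fold. The other 30 were not called, and none of the 35 differed 2-fold. The share called was 14.3%, against 20.3% of all genes tested in either direction. Called higher were 4 of the 35, against 9.02% of all genes, and called lower was 1 of the 35, against 11.3% of all genes. An unadjusted p under 0.05 was reached by 14 of the 35, against 6372 of all 18193 genes. Above 0 were 25 of the 35 and below 0 were 10, against 9353 and 8764 of all genes. The median difference over the 35 was 0.15, against 0.01 over all genes. This median was 0.07 without treated replicate 5 and 0.09 without control replicate 1. With 1 animal left out, 1 to 5 of the 35 were called higher and 0 to 1 lower. For 33 of the 35, the 95% interval of the difference lay within 1 log2 unit on either side of 0. The exceptions were Creld2, whose interval reached 1.20, and Chac1, whose interval reached -1.07. With the spike-in block none of the 35 was called and 4 had an unadjusted p under 0.05, against 143 of 18193 genes called (0.786%), and the median over the 35 was -0.06 (-0.04 over all genes).

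**Figure D1:**
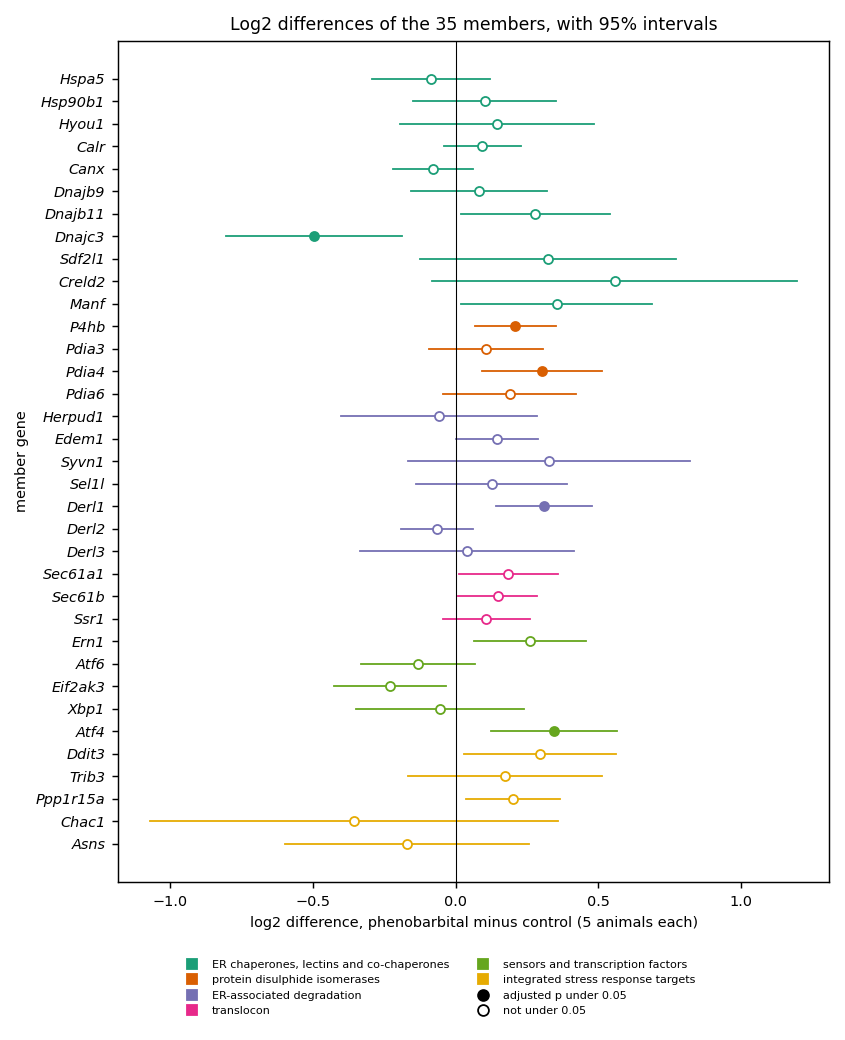
Log2 difference, phenobarbital minus control, for each of the 35 genes (vertical axis, coloured by role), with the 95% interval of limma as a line; filled points have an adjusted p under 0.05. The filled points are Dnajc3, at -0.50, and P4hb, Pdia4, Derl1 and Atf4, between 0.21 and 0.34.

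The treated and control animals separated completely for P4hb and Atf4, 5.71% of the 35, against 12.9% of all genes tested. P4hb encodes protein disulphide isomerase, which is also the beta subunit of prolyl 4-hydroxylase. Its level was 13.04, 13.14, 12.96, 13.22 and 13.12 in controls 1 to 5 and 13.23, 13.32, 13.25, 13.40 and 13.33 in treated animals 1 to 5. The gap was narrow, with control replicate 4 just under treated replicate 1. The difference was 0.21 ± 0.07 (SE, n = 5 per group), with a limma adjusted p of 0.0404 and a spike-in block value of 0.09 (adjusted p 0.78). P4hb remained called in 2 of the 10 fits that left out 1 animal, those without control replicate 4 and without treated replicate 1. In the other 8 it differed by 0.18 to 0.22, with an adjusted p of at most 0.096. It was not called after quantile normalisation (adjusted p 0.0518).

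The other disulphide isomerases were higher on average in treated animals, and 1 of the other 3 was called. Pdia4, which has several thioredoxin domains and works with Hspa5, was at 10.92, 11.02, 10.82, 11.11 and 10.98 in controls and at 10.98, 11.24, 11.19, 11.44 and 11.51 in treated animals. Only treated replicate 1 fell within the control range. The difference was 0.30 ± 0.10 (SE), with a limma adjusted p of 0.0441 and a spike-in block value of 0.16 (adjusted p 0.723). Pdia4 remained called in 2 of the 10 fits with 1 animal left out, again those without control replicate 4 and without treated replicate 1, and its adjusted p rose to at most 0.103. Adjusted over all probe sets, this probe set was not called (limma adjusted p 0.0504). The dimmer probe set of Pdia4 differed by 0.18 and was not called either (adjusted p 0.0626). Pdia6, which trims the signal of IRE1, differed by 0.19 ± 0.11 (SE; adjusted p 0.228; 0.28 and called without control replicate 4, at 0.0333), and Pdia3, the partner of calnexin and calreticulin, by 0.11 ± 0.09 (SE; adjusted p 0.432). In both, control replicate 4 was the highest control and treated replicate 5 the highest treated animal.

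None of the major ER chaperones was called. Hspa5, also named BiP, binds exposed hydrophobic stretches and holds the sensors inactive. It was at 13.66, 13.74, 13.81, 13.77 and 13.93 in controls and at 13.59, 13.60, 13.56, 13.67 and 14.06 in treated animals. In 3 treated animals it lay below every control, and in treated replicate 5 it lay above every control. The difference was -0.09 ± 0.10 (SE; 95% interval -0.29 to 0.12; limma adjusted p 0.552). Its other probe sets differed by 0.00 and -0.01, and neither was called.

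Hsp90b1, the ER Hsp90, was at 12.43, 12.77, 12.88, 12.79 and 12.77 in controls and at 12.71, 12.62, 12.73, 12.85 and 13.24 in treated animals. Treated replicate 5 was above all others and control replicate 1 below all others. The difference was 0.10 ± 0.12 (SE; adjusted p 0.563), and the sign of this gene turned with the mean of its probe sets, to -0.12. Hyou1, a large relative of Hsp70 that exchanges nucleotide on Hspa5, ran from 9.95 to 10.55 in controls and from 10.14 to 10.96 in treated animals, with a difference of 0.15 ± 0.16 (SE; adjusted p 0.539). A dimmer probe set of Hyou1 differed by 0.65 (adjusted p 0.0515 over all probe sets) and, when multi-transcript probe sets were set aside, was called at 0.0442. The lectins Calr and Canx, which retain glycoproteins until folded, differed by 0.09 ± 0.06 and -0.08 ± 0.07 (SE), with adjusted p of 0.304 and 0.407.

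Among the co-chaperones of the DnaJ family, 1 of 3 was called. Dnajc3, also named p58IPK, assists Hspa5 and restrains the eIF2 alpha kinases. It was at 11.60, 11.55, 11.83, 11.53 and 11.96 in controls and at 11.53, 11.01, 10.94, 10.92 and 11.59 in treated animals. Treated replicates 2, 3 and 4 lay below every control, while treated replicates 1 and 5 lay within the control range. The fall was 0.71-fold, -0.50 ± 0.14 on the log2 scale (SE; 95% interval -0.81 to -0.19; limma adjusted p 0.029), with a spike-in block value of -0.33 (adjusted p 0.617). Dnajc3 was called in 5 of the 10 fits with 1 animal left out, and without any of control replicates 3 and 5 and treated replicates 2, 3 and 4 it fell short, at -0.46 to -0.43 (adjusted p at most 0.0707). The call rested on 1 of the gene's 5 probe sets. The other 4, all dimmer on average, differed by -0.16, 0.10, -0.09 and 0.23, and none of them was called. The one at -0.09 was nearly as bright, at 11.38 in controls and 11.29 in treated animals, against 11.69 and 11.20. The mean of the 5 was not called (-0.08, adjusted p 0.591).

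Dnajb9, which returns Hspa5 to IRE1, was at 12.04 to 12.39 in controls and at 12.07, 12.26, 12.23, 12.20 and 12.72 in treated animals, a difference of 0.08 ± 0.11 (SE; adjusted p 0.63). Treated replicate 5 alone lay above the controls. Dnajb11, which feeds substrates to Hspa5, was at 10.44, 10.54, 10.46, 10.87 and 10.75 in controls and at 10.73, 10.81, 10.68, 10.93 and 11.31 in treated animals. Its difference of 0.28 ± 0.12 (SE) had an unadjusted p of 0.0382 and an adjusted p of 0.119, and the groups overlapped.

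The small ER proteins Sdf2l1, Creld2 and Manf, all known as strong responders to ER stress, were not called. Creld2 was at 10.15, 10.67, 10.35, 11.52 and 10.90 in controls and at 10.87, 11.13, 10.87, 11.11 and 12.40 in treated animals. Control replicate 4 exceeded all treated animals but replicate 5. The difference of Creld2 was 0.56 ± 0.30 (SE; 95% interval -0.08 to 1.20; adjusted p 0.198), and with the spike-in block it was -0.24 (adjusted p 0.866). Without treated replicate 5 it was 0.28 (adjusted p 0.407) and without control replicate 4 it was 0.76 (adjusted p 0.0643). Without both of them it was called, at 0.48 (adjusted p 0.0388).

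Sdf2l1, a partner of Dnajb11, was at 9.64, 9.71, 9.74, 10.39 and 10.16 in controls and at 9.89, 10.14, 9.82, 10.43 and 10.98 in treated animals. Manf, a secreted neurotrophic factor that binds Hspa5, was at 11.89, 12.25, 12.01, 12.60 and 12.44 in controls and at 12.29, 12.57, 12.37, 12.68 and 13.05 in treated animals. The same animals were highest in each group for both genes. The differences were 0.32 ± 0.21 for Sdf2l1 (SE; adjusted p 0.287) and 0.35 ± 0.16 for Manf (SE; adjusted p 0.123), and both fell below 0 with the spike-in block (-0.14 and -0.01).

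**Figure D2:**
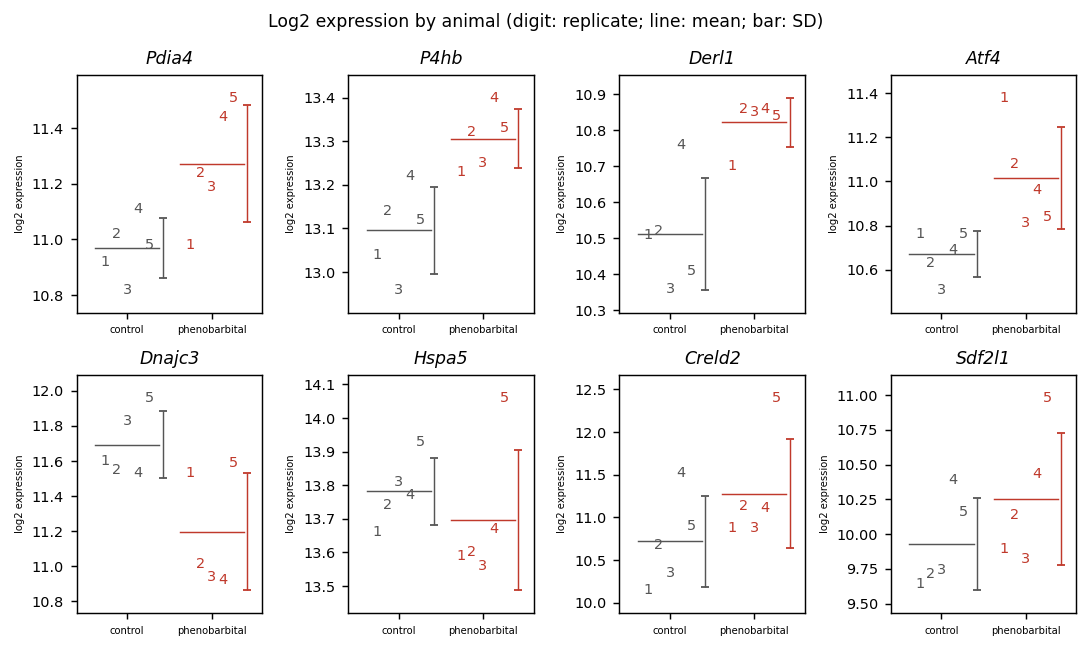
Log2 expression (vertical axis) by group for the 5 called genes and for Hspa5, Creld2 and Sdf2l1; each digit is the replicate number of 1 animal, the line is the group mean and the bar is the SD (n = 5). Treated replicate 5 stands at 14.06 for Hspa5, 12.40 for Creld2 and 10.98 for Sdf2l1, above all other animals.

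Of 7 genes of ER-associated degradation, Derl1 rose and the other 6 were not called. Derl1 encodes a derlin, a membrane protein that helps move misfolded proteins back to the cytosol. It was at 10.51, 10.52, 10.36, 10.76 and 10.41 in controls and at 10.70, 10.86, 10.85, 10.86 and 10.84 in treated animals. Control replicate 4 lay above treated replicate 1, and the other 4 treated animals were within 0.02 of each other. The difference was 0.31 ± 0.08 (SE; 95% interval 0.14 to 0.48; limma adjusted p 0.016), or 1.24-fold, and Derl1 stayed called in all 10 fits with 1 animal left out. The mean of its 4 probe sets was not called (0.10, adjusted p 0.239). Against control replicate 4 alone, in the spike-in block, it was 0.06 (adjusted p 0.852). Its second probe set was also called, at 0.22 (adjusted p 0.0429 over all probe sets), while the remaining 2, which can match several transcripts, gave -0.04 and -0.09.

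Derl2 and Derl3, related derlins, differed by -0.07 ± 0.06 and 0.04 ± 0.17 (SE; adjusted p 0.447 and 0.894). Derl3 was at 7.52, 7.80, 7.91, 8.54 and 7.81 in controls and at 7.87, 7.85, 7.71, 7.90 and 8.45 in treated animals. A single animal of each group stood out in Derl3, control replicate 4 and treated replicate 5. Its spike-in block value was -0.58 (unadjusted p 0.0215, adjusted p 0.276).

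Syvn1 encodes the ubiquitin ligase HRD1, and Sel1l its stabilising partner. Syvn1 was at 10.50, 10.67, 10.66, 11.44 and 11.05 in controls and at 10.83, 11.13, 10.75, 11.20 and 12.04 in treated animals. As in Creld2, control replicate 4 lay above 4 of the 5 treated animals. The differences were 0.33 ± 0.23 for Syvn1 and 0.13 ± 0.12 for Sel1l (SE; adjusted p 0.331 and 0.491), both below 0 with the spike-in block (-0.25 and -0.11). Herpud1, which organises the ligase complex, ran from 12.59 to 13.09 in controls and was at 12.48, 12.72, 12.46, 12.64 and 13.33 in treated animals (difference -0.06 ± 0.16, SE; adjusted p 0.827). Edem1, a lectin that picks glycoproteins for degradation, differed by 0.15 ± 0.07 (SE), with an unadjusted p of 0.0478 and an adjusted p of 0.139.

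The translocon genes Sec61a1 and Sec61b, subunits of the channel through which new proteins enter the ER, and Ssr1, a subunit of the associated TRAP complex, were slightly higher on average and not called, with 2 of the 3 at an unadjusted p under 0.05. Sec61b was at 11.93, 11.98, 11.93, 12.02 and 12.08 in controls and at 12.06, 12.08, 12.09, 12.17 and 12.28 in treated animals. Its groups touched at 12.06 to 12.08, and the difference of 0.15 ± 0.06 (SE) had an unadjusted p of 0.0379 and an adjusted p of 0.119. A second probe set of Sec61b is annotated to Gm10320 as well, and its difference of 0.07 was left out of all counts. Sec61a1 differed by 0.18 ± 0.08 (SE; adjusted p 0.122), and 1 of its 6 probe sets was called higher, at 0.45 (adjusted p 0.0144 over all probe sets). Ssr1 differed by 0.11 ± 0.07 (SE; adjusted p 0.295).

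The 3 stress sensors were not called. Ern1, which encodes IRE1 alpha, was at 10.88, 10.81, 10.80, 10.50 and 10.70 in controls and at 11.20, 10.86, 10.83, 11.00 and 11.10 in treated animals. Control replicate 4 was the lowest of all, the opposite of its place in Creld2 or Syvn1. The difference of 0.26 ± 0.09 (SE) had an adjusted p of 0.06 and was called after median centring (0.0377), among the brighter genes alone (0.0489) and with trend and robust variance (0.0383) and without treated replicate 3 (0.0447). With the spike-in block it was 0.50 (unadjusted p 0.00363, adjusted p 0.14). Eif2ak3, which encodes PERK, ran from 9.28 to 9.57 in controls and was at 8.85, 9.22, 9.22, 9.21 and 9.33 in treated animals, a difference of -0.23 ± 0.09 (SE; adjusted p 0.0904). Atf6 differed by -0.13 ± 0.09 (SE; adjusted p 0.338).

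Of the transcription factors below the sensors, Atf4 rose and Xbp1 was not called. Atf4 was at 10.76, 10.63, 10.51, 10.69 and 10.76 in controls and at 11.38, 11.08, 10.81, 10.96 and 10.84 in treated animals. Every treated animal exceeded every control, and treated replicate 5, the highest in most chaperones, was the second lowest of the treated. The difference was 0.34 ± 0.10 (SE; 95% interval 0.12 to 0.56; limma adjusted p 0.0322), and the spike-in block value was 0.32 (adjusted p 0.478). Atf4 was called in 5 of the 10 fits with 1 animal left out. It fell short without any of control replicates 2 and 3 and treated replicates 1, 2 and 4, at 0.25 to 0.36 (adjusted p at most 0.0787). Of its 3 probe sets 1 was called, and the mean of the 3 gave 0.12 (adjusted p 0.36).

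Xbp1 was at 12.39, 12.59, 12.87, 12.86 and 12.67 in controls and at 12.76, 12.24, 12.55, 12.51 and 13.05 in treated animals, with wide overlap. The difference was -0.05 ± 0.14 (SE; adjusted p 0.812). A dimmer probe set of Xbp1, the only one that matches a single transcript, was called lower, at -0.59 (adjusted p 0.0254 over all probe sets). Splicing of Xbp1, cleavage of ATF6 and phosphorylation of PERK are not read by these probe sets.

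The 5 targets of ATF4 in the list did not pass the test, and 2 of them had an unadjusted p under 0.05. Ddit3, which encodes the pro-apoptotic factor CHOP, was at 7.92, 8.10, 7.68, 7.66 and 7.95 in controls and at 8.22, 8.29, 7.77, 8.05 and 8.46 in treated animals. Its groups overlapped, and the difference of 0.30 ± 0.12 (SE) had an unadjusted p of 0.0326 and an adjusted p of 0.107. Without treated replicate 3 it was called, at 0.39 (adjusted p 0.0285). A second probe set of Ddit3 differed the other way, by -0.35. Ppp1r15a, also named GADD34, reverses eIF2 alpha phosphorylation. It was at 7.32, 7.36, 7.10, 7.27 and 7.13 in controls and at 7.51, 7.48, 7.27, 7.55 and 7.38 in treated animals, a difference of 0.20 ± 0.08 (SE; adjusted p 0.077). It passed after quantile normalisation, at 0.30 (adjusted p 0.018), and without treated replicate 3, at 0.24 (adjusted p 0.0463).

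Trib3, a pseudokinase that restrains ATF4 and CHOP, differed by 0.17 ± 0.16 (SE; adjusted p 0.463). Asns, asparagine synthetase, differed by -0.17 ± 0.20 (SE; adjusted p 0.573), while its dimmer probe set was called lower, at -1.24 (adjusted p 0.0156 over all probe sets). Chac1, which degrades glutathione, was at 6.32, 7.60, 7.00, 8.07 and 7.12 in controls and at 7.92, 6.22, 7.03, 6.71 and 6.45 in treated animals. Its values spread over more than 1 log2 unit in each group, and the difference was -0.36 ± 0.33 (SE; adjusted p 0.47), with a spike-in block value of -1.20 (unadjusted p 0.0383, adjusted p 0.335).

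Probe sets were also tested singly. Of the 86 probe sets of these genes with a single symbol, 5 were called higher and 3 lower, together 9.30%, against 18.7% of all 45037 probe sets that are not controls. Of the 25 genes with more than 1 probe set, 12 had all of them on the same side of 0. The other 13 had probe sets on both sides of 0. Among them were the called genes Dnajc3, Derl1 and Atf4, whose direction is that of the brightest probe set.

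**Figure D3:**
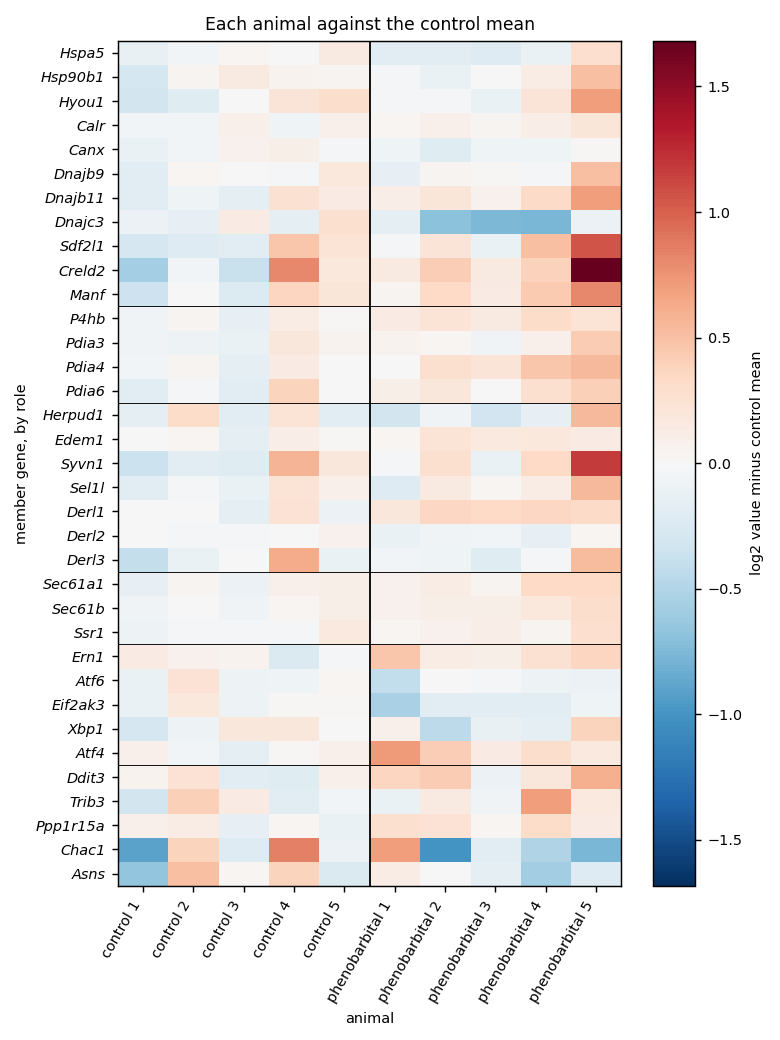
Heat map of the log2 value of each animal (columns) minus the control mean of that gene, for the 35 genes (rows, by role, divided by lines); red is above and blue below the control mean. Treated replicate 5 is above the other treated animals across the upper, chaperone rows, and control replicate 4 is the highest control in Creld2, Syvn1, Sdf2l1 and Chac1.

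Animals of the same group differed from each other in these genes. The median SD within groups was 0.19 over the 35 and 0.14 over all genes. Treated replicate 5 was the highest treated animal in 24 of the 35 genes (68.6%), against 18.1% of all genes, and the lowest in none. It was highest in 11 of 11 chaperones and co-chaperones, 3 of 4 disulphide isomerases, 5 of 7 degradation genes, 2 of 3 translocon genes, 2 of 5 sensors and factors and 1 of 5 ATF4 targets. Its median deviation from the mean of the other 4 treated animals was 0.52 over the chaperones, 0.26 over the 35 and -0.01 over all genes. The largest deviations were 1.41 for Creld2, 1.06 for Syvn1, 0.91 for Sdf2l1 and 0.76 for Herpud1. Atf4 and Chac1 deviated the other way, by -0.22 and -0.52.

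Control replicate 4 was the highest control in 15 of the 35 genes (42.9%), against 29.9% of all genes, among them 4 of 4 disulphide isomerases, 5 of 7 degradation genes and 5 of 11 chaperones. Its deviations from the other controls were 1.06 for Chac1, 1.00 for Creld2, 0.78 for Derl3, 0.72 for Syvn1 and 0.58 for Sdf2l1. Control replicate 1 was the lowest control in 21 of the 35, against 18.6% of all genes. With control replicate 4 and treated replicate 5 both left out, P4hb, Creld2, Derl1 and Atf4 were called higher and Dnajc3 lower. These animals were singled out after the values were seen, and the order of animals was not tested.

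**Figure D4:**
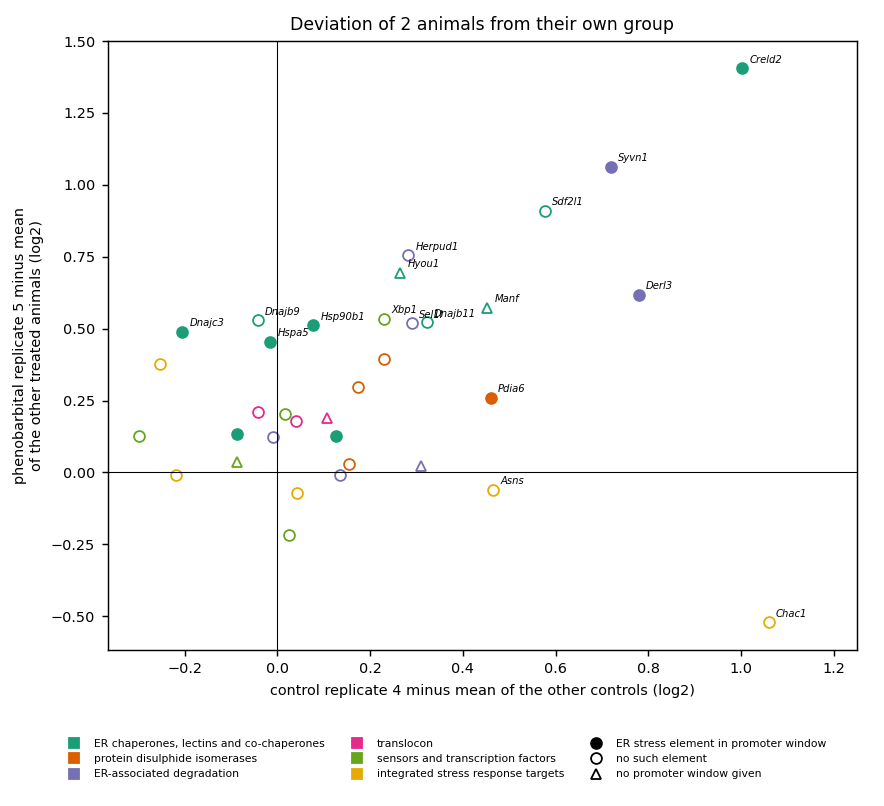
For each of the 35 genes, the deviation of control replicate 4 from the mean of the other 4 controls (horizontal axis, log2) and of treated replicate 5 from the mean of the other 4 treated animals (vertical axis, log2), coloured by role; filled circles have the ER stress response element in the promoter window, open circles do not, and triangles have no window. Creld2, at 1.00 and 1.41, and Syvn1, at 0.72 and 1.06, lie at the upper right, and Chac1, at 1.06 and -0.52, at the lower right.

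The genes can also be set apart by the elements printed above. Of the 9 genes with the element, 1 was called (Dnajc3), with a median difference of 0.09, and of the 21 with a window and no element 3 were called, with a median of 0.15. The deviation of treated replicate 5 ran from 0.13 to 1.41 over the 9, with a median of 0.49, and from -0.52 to 0.91 over the 21, with a median of 0.20. The ranges overlapped widely. For control replicate 4 the medians were 0.13 and 0.14.

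Markers of other cells are given beside these values, since secretory cells are rich in these proteins. In whole liver, fewer cells of a type and less RNA per cell cannot be told apart. Of 12 B cell and plasma cell markers 8 were measured, and Pou2af1 lay below the lower quartile of every array. Their summed level was between 9.65 and 9.99 in controls and between 10.89 and 11.38 in treated animals, with treated replicate 5 the lowest of the treated, at 10.89. A single marker carried this, the immunoglobulin heavy chain gene Ighm, which rose by 1.65 (limma adjusted p 2.17e-06). Without Ighm the summed level was 7.83 to 8.02 in controls and 7.87 to 8.05 in treated animals, Jchain fell by 0.42 on the log2 scale (adjusted p 0.0165), and the median difference of the 8 markers was 0.05. Of 17 pancreatic acinar markers 10 were measured, and Cpb1 and Ctrc lay below the lower quartile of every array. The summed acinar level was between 11.26 and 11.59 in controls, highest in control replicate 4. It was between 11.29 and 11.45 in treated animals, highest in treated replicate 5. By the mean level of the 10 markers neither animal was highest. That mean was 5.65 in control replicate 4 (controls 5.50 to 5.71) and 5.68 in treated replicate 5 (treated animals 5.65 to 5.80). Of the 10 markers 4 were called higher. Of 9 stellate cell and fibroblast markers 4 were called lower, with summed levels of 12.69 to 12.84 in controls and 12.02 to 12.50 in treated animals. Of 9 endothelial markers 5 were called lower, with summed levels of 11.71 to 12.05 and 11.32 to 11.72. Hepatocyte markers in treated replicate 5 summed to 16.91 and in control replicate 4 to 16.97. The part of other cells in these differences was not tested.

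**Figure D5:**
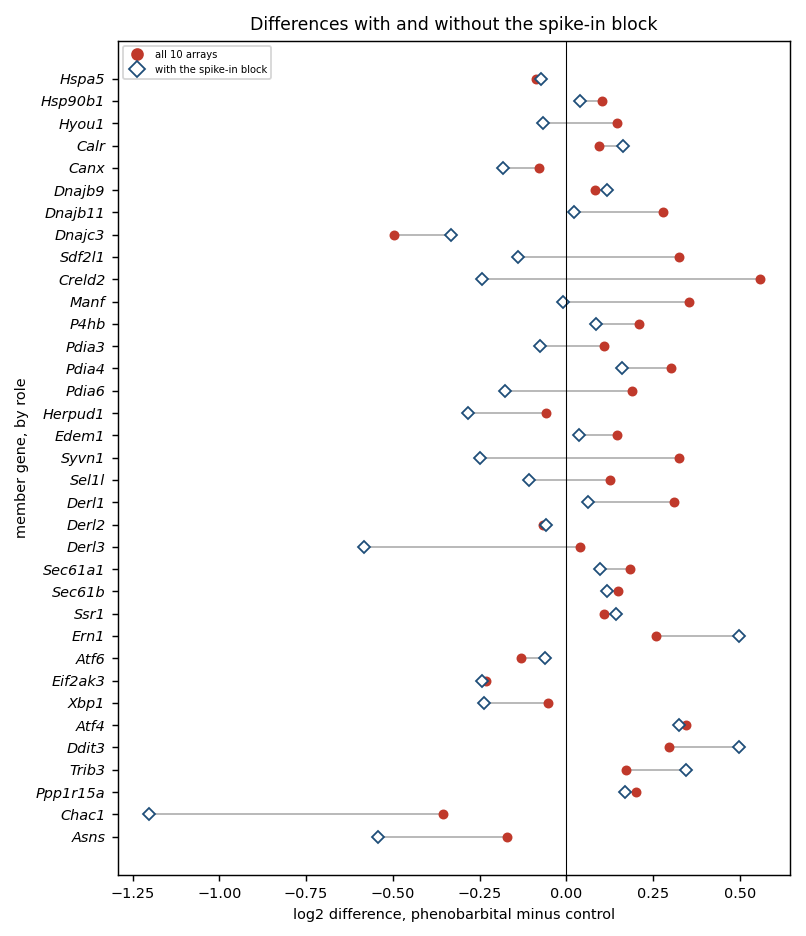
Log2 difference, phenobarbital minus control, of each of the 35 genes over all 10 arrays (filled circles) and with the spike-in block (open diamonds), joined by a line. Over all arrays 25 genes lie above 0 and with the block 16, and Creld2 moves from 0.56 to -0.24 while Ern1 moves from 0.26 to 0.50.

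Other genes of the ER were described from lists by function. Their counts are read beside all 18193 genes, of which 20.3% were called and 6372 had an unadjusted p under 0.05. Of 32 further folding and redox genes measured, none rose and 7 fell, with 13 at an unadjusted p under 0.05 and a median of 0.02. Dnajc1, a membrane partner of Hspa5, fell by 0.80, Tmx3, a membrane thioredoxin, by 0.51, Dnajc10, a reductase of misfolded proteins, by 0.39 and Fkbp9, a prolyl isomerase, by 0.34 on the log2 scale (limma adjusted p 0.0048, 0.00642, 0.0102 and 0.00622). In the spike-in block they were at -0.42, -0.19, -0.22 and -0.27. Of 26 further degradation genes, 2 rose and 3 fell, with a median of 0.02. They include Edem2, at 0.35, and Nploc4, a cofactor of the Vcp segregase, at 0.35, and on the lower side Man1b1, a mannosidase, at -0.24, and Ngly1, an N-glycanase, at -0.22 (adjusted p between 0.0233 and 0.0441). Edem2 was at -0.05 with the spike-in block, Nploc4 at 0.00, Man1b1 at -0.36 and Ngly1 at -0.05. With 1 animal left out Edem2 kept its call in 3 of 10 fits (0.28 to 0.45), Nploc4 in 5 (0.30 to 0.43), Man1b1 in 4 (-0.29 to -0.21) and Ngly1 in 2 (-0.27 to -0.19).

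Of 32 further genes of translocation, signal peptidase and oligosaccharyltransferase, 7 rose and 3 fell, with a median of 0.02. Srpr, the receptor of the signal recognition particle, was at 0.41 and Srp68, a part of that particle, at 0.38, while Sec61a2 was at -0.40 and Tram2 at -0.36 (adjusted p between 0.00577 and 0.0157). The spike-in block values were 0.08, 0.15, -0.52 and -0.30. Of 27 genes of COPII vesicles and ER exit, 5 rose and 2 fell, with a median of 0.11. Preb, which activates the COPII GTPase Sar1, rose by 0.67, Surf4, a cargo receptor, by 0.48 and Kdelr3, which returns ER proteins from the Golgi, by 0.47, and Mia2, which helps load large cargo, fell by 0.52 on the log2 scale (adjusted p between 0.00438 and 0.0161). Preb was at 0.35 with the spike-in block, Surf4 at 0.23, Kdelr3 at 0.49 and Mia2 at -0.23. Kdelr3 was dim, at 4.53 in controls and 4.99 in treated animals, below the array medians of 5.42 to 5.50. Treated replicate 5 was the highest treated animal in 19 of the 32 translocation genes, 17 of the 32 folding genes and 14 of the 27 exit genes.

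The regulators and targets of the stress response gave few calls. Of 21 further regulators, 5 had an unadjusted p under 0.05, 1 fell and none rose: Eif2ak4, which encodes the eIF2 alpha kinase GCN2, at -0.29 (adjusted p 0.0378; spike-in block -0.14). Eif2ak4 kept its call in 2 of the 10 fits with 1 animal left out (-0.33 to -0.21). Of 29 further targets of ATF4 and the integrated stress response, 4 rose and none fell, with 10 at an unadjusted p under 0.05 and a median of 0.07. Stbd1, a glycogen-binding protein, rose by 0.93 (adjusted p 3.28e-05), with every treated animal above every control, and was the only gene of the lists on the ER, the stress response and chaperones called with the spike-in block (0.67, adjusted p 0.0345). The others were Shmt2, mitochondrial serine hydroxymethyltransferase, at 0.42, Wars, tryptophanyl-tRNA synthetase, at 0.29 and Phgdh, the first enzyme of serine synthesis, at 0.24 (adjusted p between 0.0221 and 0.0351). Shmt2 was at 0.00 with the spike-in block, Wars at 0.17 and Phgdh at 0.06. With 1 animal left out Shmt2 kept its call in 4 of 10 fits (0.34 to 0.52) and Phgdh in 2 (0.19 to 0.28), while Wars kept it in 9, all but that without control replicate 3 (0.28, adjusted p 0.0507).

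The share called was 41.7% for enzymes of the smooth ER and 57.7% for a list of mainly cytosolic chaperones. It was 14.3% for the 35 genes and 20.3% for all genes, and these differences were not tested. Of 12 partners of drug oxidation, 5 rose and none fell, with 7 at an unadjusted p under 0.05 and a median of 0.18. Ephx1, microsomal epoxide hydrolase, rose by 0.65 (adjusted p 0.000233), the flavin monooxygenases Fmo5 and Fmo1 by 0.50 and 0.33, and the reductase Cyb5r3 by 0.31 (adjusted p 0.000958, 0.0109 and 0.0128). None of the 12 was called with the spike-in block and 2 had an unadjusted p under 0.05, while Ephx1 was at 0.45, Fmo5 at 0.50, Fmo1 at 0.22, Cyb5r3 at 0.24 and the median at 0.16. Of 20 genes that shape the ER, 4 fell and none rose, with 13 at an unadjusted p under 0.05 and a median of -0.12. They were Rtn4, a reticulon of ER tubules, at -0.54, Spast, the microtubule-severing spastin, at -0.39, and Ktn1 and Rrbp1, both of ER sheets, at -0.34 each (adjusted p between 0.00503 and 0.0396). With the spike-in block none was called and 3 had an unadjusted p under 0.05, with Rtn4 at -0.29, Spast at 0.06, Ktn1 at -0.06 and Rrbp1 at -0.40. With 1 animal left out Spast kept its call in 2 of 10 fits (-0.50 to -0.33) and Ktn1 in 4 (-0.41 to -0.28).

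Of 26 cytosolic chaperones, 15 rose and none fell, with 20 at an unadjusted p under 0.05 and a median of 0.38. The inducible Hsp70 genes Hspa1a and Hspa1b, near-identical copies that the probe sets may not separate, rose by 2.23 and 1.17, the co-chaperone Dnajb1 by 1.22 and Bag3 by 1.11 (adjusted p 0.00339, 0.00036, 0.0161 and 0.00154). With the spike-in block no gene of the cytosolic list was called and 6 had an unadjusted p under 0.05, while Hspa1a was at 2.50, Dnajb1 at 1.24, Bag3 at 0.96, Hspa1b at 0.81 and the median of the list at 0.15.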

How the data were processed

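Liver RNA of 5 control and 5 phenobarbital-treated mice, 1 array per animal, was labelled from the 3' end starting from 0.1 µg, per the labels' protocols. The array software GCOS is named in the submitters' processing notes. The values deposited by the authors are log2 levels from 2.34 to 15.13, with 1 for every probe set on every array. The log2 scale was read from this range, and the summarisation and normalisation are not given in the sources used here. The number of arrays limits the precision.

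Groups came from the labels, with each array a separate animal. Of 45101 probe sets, 64 were controls, 34945 had 1 gene symbol, 932 several and 9160 none. Symbols of 34741 probe sets were compared with RefSeq by Entrez ID, and 0 changed. For each of 18193 genes the probe set of highest mean level was used.

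Groups were compared with limma 3.58.1 (R 4.3.3; lmFit, then eBayes; two-sided, group as the only term, Benjamini-Hochberg over all genes, adjusted p under 0.05). The fit was tested on simulated data. Deviations, promoter motifs (RefSeq, GRCm38.p6) and figures were made with Python 3.11.15 and matplotlib 3.10.9. No build is stated for the arrays, and no pseudocount was needed on log2 values.

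The alternatives were median centring or quantile normalisation, brighter genes alone, other choices of probe set, array weights, trend and robust variance, the replicate block, the spike-in block and covariate, and leaving out each animal. Leaving out control replicate 4 and treated replicate 5 together was chosen after seeing the data. The 35 genes, the gene lists and the spike-in alternatives were chosen with earlier results of these data known. Named genes are all 35, Cyp2b10 and, from each other list, up to 4 called genes with the largest change.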

Additional observations from a re-analysis of the deposited data

Results flagged for a closer look

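In 8 of the 70 groups of 5 animals checked over the 35 genes, and in 10 of 68 over the other named genes, the highest or the lowest animal stood apart from the rest by more than Dixon's critical value of 0.71 of the group's range. Chance gives about 1 in 20 such groups, and no cause was tested.

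Treated replicate 5 was high for Hspa5 at 14.06 (the other treated animals 13.56 to 13.67), for Creld2 at 12.40 (10.87 to 11.13) and for Derl3 at 8.45 (7.71 to 7.90). Treated replicate 1 was low for Derl1 at 10.70 (10.84 to 10.86), for Atf6 at 8.65 (8.97 to 9.06) and for Eif2ak3 at 8.85 (9.21 to 9.33). Among controls, replicate 1 was low for Hsp90b1 at 12.43 (12.77 to 12.88), and replicate 5 was high for Ssr1 at 11.33 (11.08 to 11.15).

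Outside the 35 genes, treated replicate 1 was high for the cytosolic chaperones Hspa1a, at 11.50 (9.0 to 9.37), and Dnajb1, at 11.91 (9.95 to 10.07). Treated replicate 4 was high for Man1b1 at 6.65 (6.37 to 6.44) and low for Mia2 at 5.43 (5.78 to 5.86) and Kdelr3 at 4.62 (5.04 to 5.13). Treated replicate 5 was high for Wars at 8.19 (7.81 to 7.89) and low for Tram2 at 7.30 (7.52 to 7.60). In controls, Tram2 was high in replicate 1 at 8.01 (7.80 to 7.85), Eif2ak4 was high in replicate 2 at 6.93 (6.46 to 6.56), and Mia2 was low in replicate 4 at 5.97 (6.32 to 6.39).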

How the results depend on the processing

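The spike-in settings moved these results most, and the cause was not tested. The block leaves control replicate 4 as the only control compared, and standard errors were larger with it. Atf4 went from 0.34 ± 0.10 to 0.32 ± 0.18 (SE), and Derl1 from 0.31 ± 0.08 to 0.06 ± 0.11 (SE). The 3692 genes called became 143 with the spike-in block, 129 with the covariate and 8425 with every probe set singly (2431 to 4610 with 1 animal left out). The 4 genes of the 35 called higher became 2 with probe sets averaged, 7 with the replicate block and 0 with the spike-in block or covariate (1 to 5 with 1 animal left out). The 1 called lower became 0 with the mean of probe sets and both spike-in settings, 2 with single-transcript probe sets and 3 over probe sets singly (0 to 1 with 1 animal left out). The median of the 35 became -0.153 with the covariate.

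Signs turned with the mean of probe sets for Hsp90b1 (-0.12), Ddit3 (-0.028) and Phgdh (-0.016), with single-transcript probe sets for Srpr (-0.16) and Eif2ak4 (0.066), and without both singled-out animals for Dnajb9 (-0.032). With the spike-in block they turned for Pdia3 (-0.076), Pdia6 (-0.18), Sdf2l1 (-0.14), Creld2 (-0.24), Manf (-0.008), Hyou1 (-0.066), Syvn1 (-0.25), Sel1l (-0.11), Derl3 (-0.58), Edem2 (-0.048) and Spast (0.058). With the covariate they turned for Hsp90b1 (-0.038), Pdia3 (-0.19), Pdia6 (-0.26), Dnajb9 (-0.039), Dnajb11 (-0.15), Sdf2l1 (-0.46), Creld2 (-0.58), Manf (-0.22), Hyou1 (-0.30), Syvn1 (-0.57), Sel1l (-0.26), Derl3 (-0.64), Sec61a1 (-0.004), Edem2 (-0.12), Nploc4 (-0.051), Spast (0.068) and Ktn1 (0.062). Leaving out 1 animal gave -0.00 to 0.15 for Hsp90b1, -0.024 to 0.138 for Dnajb9, -0.209 to 0.018 for Herpud1, -0.084 to 0.196 for Derl3 and -0.161 to 0.042 for Xbp1.

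Replicate numbers were not shown to pair the animals: deviations of same-numbered animals correlated at -0.024, 0.021, -0.001, 0.104 and 0.116, and only numbers 4 and 5 correlated best with their own. The replicate block called 3664 genes, and among the 35 added Dnajb11, Manf and Ddit3. Array weights changed no call of the 35.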
